A study of Glycine max with 2 samples.

Results

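Nuclei were selected here by the RNA of 3 genes taken as markers of the endothelium, the innermost cell layer of the seed coat: Glyma.01G065400, Glyma.01G135500 and Glyma.01G056800. The selection asked for at least 1000 RNA molecules in a nucleus, counted by unique molecular identifiers (UMIs), and at least 1 UMI of 2 or more of the 3 genes. It would have kept the 150 nuclei with the highest summed UMIs of the 3 genes per 10000 UMIs. Only 146 of 8636 nuclei (1.69%) met these conditions, so all 146 were kept. The study sampled cotyledon-stage seeds of soybean (Glycine max) cultivar Williams 82, with approximately 50 seeds pooled and no treatment or second genotype. Nuclei released by hand chopping of whole seeds gave 1 single nucleus RNA (snRNA) library and 1 library of accessible chromatin (ATAC), and all 8636 barcodes were found in both. The comparison implied by this design is between the selected nuclei and the other 8490 nuclei of the same libraries. Both libraries are unreplicated and no test was made, so every interval below is a 95% interval that covers counting error only.

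The endothelium differentiates from the inner face of the inner integument and lies against the endosperm, across which maternal solutes reach the embryo. In Arabidopsis this layer is known for making proanthocyanidins, and it borders a cuticle that seals the embryo sac from the maternal tissue. The 3 marker genes have different roles. Glyma.01G065400 encodes a member of the serine carboxypeptidase S28 family, peptidases that cleave next to proline. Glyma.01G135500 is most like Arabidopsis SPX3, a small SPX domain protein of phosphate signaling, and Glyma.01G056800 is most like WRKY57, a WRKY transcription factor.

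The values of the 3 genes chose the nuclei and are given only to describe them. A UMI of Glyma.01G065400 was present in 131 of the 146 nuclei, one of Glyma.01G056800 in 133 and one of Glyma.01G135500 in 49. The most frequent pair was Glyma.01G065400 with Glyma.01G056800 and no Glyma.01G135500, in 97 nuclei, and 21 nuclei held all 3 RNAs. The level of Glyma.01G065400 was 333 (297 to 372) counts per 1000000 UMIs (CPM) in the selected nuclei and 5.75 (5.02 to 6.55) CPM in the others. Glyma.01G056800 reached 285 (251 to 322) CPM in the selected nuclei, against 13.7 (12.5 to 14.9) CPM elsewhere, and Glyma.01G135500 reached 80.5 (63.2 to 101) CPM, against 1.05 (0.755 to 1.43) CPM. These RNAs were sparse even where they were found. The highest count in a selected nucleus was 12 UMIs of Glyma.01G065400, 10 of Glyma.01G056800 and 6 of Glyma.01G135500. Outside the selection, 517 nuclei with at least 1000 UMIs held exactly 1 of the RNAs, and 150 of these were in the same cluster as most of the selected nuclei.

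The summed level of the 3 RNAs spanned 0.651 to 66.4 UMIs per 10000 among the selected nuclei, with a median of 9.96. At the low end, the last 5 nuclei ranged between 0.651 and 2.15 per 10000, and the lowest held 2 UMIs of the marker RNAs among 30736. Just outside, the 5 highest nuclei with only 1 of the RNAs reached 23.7 to 34.3 per 10000 with 1105 to 1266 UMIs each, which is above the median of those selected. A single nucleus with 2 of the RNAs was left out for depth, at 973 UMIs. Membership thus turned on seeing 2 different RNAs in a nucleus, not on a level.

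The selected nuclei had a median of 3773 UMIs (1011 to 40672), against 2937 (199 to 111060) in the others, and a median of 10967.5 ATAC fragments against 7795.5.

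**Figure D1:**
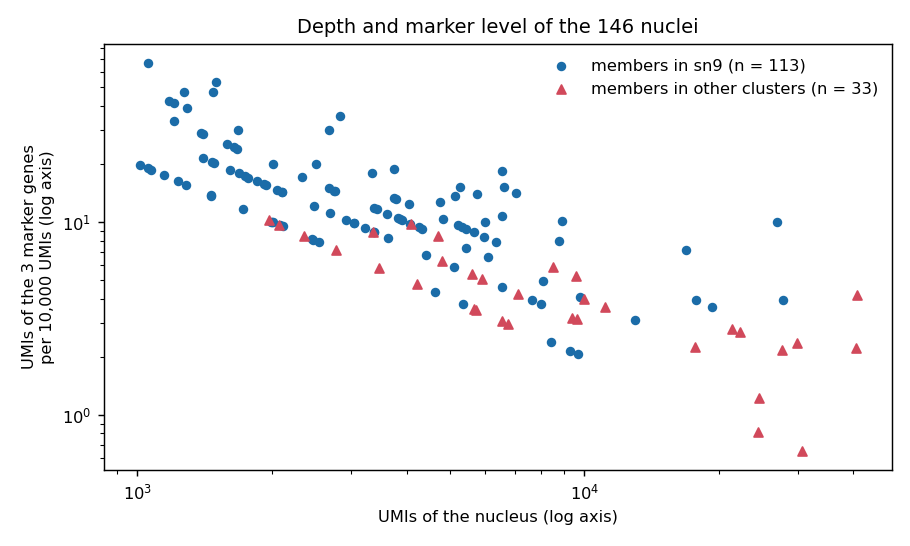
Each point is 1 of the 146 selected nuclei, with its UMIs on a log x axis and the summed UMIs of the 3 marker RNAs per 10000 UMIs on a log y axis; circles are the 113 nuclei in cluster sn9 and triangles the 33 in other clusters. The 33 lie toward the deep, low end, with a median of 4.0 per 10000 against 11.8 for the 113.

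When clusters were rebuilt from all RNAs, 113 of the 146 nuclei (77.4%, exact binomial interval 69.7 to 83.9%) fell in the cluster that matched sn9 of the study, which held 4.43% of all nuclei. The study placed sn14 and sn9, named in that order, in the inner integument and endothelium. The clusters were built on RNAs that include the 3 markers, so this share is a description. The share was also 77.4% at a coarser and at a finer clustering resolution (0.5 and 1.5 in place of 1). The other 33 were spread over 11 clusters, of which sn10, an endosperm cluster, held 9, sn15, an embryo cluster, held 7 and sn1, an outer integument cluster, held 4. Clusters sn6, sn11, sn14, sn16 and sn17 held 2 each, and sn4, sn18 and sn19 held 1 each. The markers differed in spread: sn9 held 74.2% of all UMIs of Glyma.01G065400, 68.7% of Glyma.01G135500 and 41.4% of Glyma.01G056800. A UMI of Glyma.01G056800 was found in 43.3% of sn9 nuclei, 12.9% of sn10, 12.2% of sn16, 9.91% of sn12 and 9.76% of sn14. No selected nucleus was in sn2, the largest embryo cluster, where 0 of 633 nuclei held a UMI of Glyma.01G065400 or Glyma.01G135500, which allows a share of nuclei with a UMI of up to 0.474% and sets no limit on expression, and 1.11% held one of Glyma.01G056800.

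The selected nuclei in sn9 and those elsewhere differed in depth and in marker level. Those in sn9 had a median of 3049 UMIs (1011 to 27829) and those elsewhere 7093 (1965 to 40672). Of the 33 elsewhere, 9 had more than 20000 UMIs, 6 of them in sn10, against 2 of the 113 in sn9. The 33 held 45.2% of all UMIs of the selected nuclei, so pooled levels over all 146 weigh these few deep nuclei heavily, and levels in each set are given below where the sets diverge. No doublet caller was run, and the part of doublets or of free RNA in the 33 nuclei was not tested.

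The selection took only a portion of sn9. It held 383 nuclei, of which 113 (29.5%, 25 to 34.3%) were selected, 161 had a UMI of 1 marker RNA, 108 of none, and 1 had 2 RNAs but too few UMIs. The 270 nuclei not selected had a median of 1682 UMIs. Within sn9, the share with 2 or more marker RNAs was 19.7% (14 to 26.4%) of 173 nuclei with 1000 to under 2000 UMIs, 35.2% (26.2 to 45.2%) of 105 nuclei with 2000 to under 4000, and 54.5% (42.8 to 65.9%) of 77 nuclei with 4000 or more. Outside sn9 the share was 0.054% of 1845 nuclei, 0.162% of 3086 and 0.912% of 2961 at the same depths. The share was larger at greater depth in both, and was higher in sn9 than outside it at each of the 3 depths.

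Other RNAs were then read in the nuclei so chosen. Of 49306 genes with at least 1 UMI, 312 were detected in at least 25% of the selected nuclei with a level at least 2 times that of the other nuclei (0.633% of genes), and 99 were detected in at least 25% of the other nuclei at no more than 0.5 times their level (0.201%). Of the 312, 309 were at least 2 times higher in the 113 nuclei in sn9 and 133 in the 33 elsewhere. A gene found only in the 33 could not reach 25% of all selected nuclei, so the 312 favor the 113. With the same limits applied to each set alone, 437 of the 49306 genes were higher in the 113, and 296 of these were among the 312. In the 33 alone 396 were higher, and 97 of these were among the 312. In the 270 nuclei of sn9 that the selection left out, 277 of the 312 were at least 2 times higher than in all nuclei not selected. The number was 179 in sn14 and 34 in sn10. Of the 99 lower genes, 90 were at no more than 0.5 times in the 113 nuclei, 54 in the 33 and 75 in the 270. Cluster sn9 was built on these same RNAs and holds most selected nuclei, so the counts by cluster are a description. The share of all genes that reach these limits in each cluster was not computed.

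Among the genes with a ratio of at least 2, the highest level was that of Glyma.19G002300, which has no annotation in the tables used here, and the next was that of LTP4, described with the cuticle genes. Glyma.19G002300 was at 4829 (4688 to 4973) CPM in the selected nuclei and 114 (111 to 118) CPM in the others, a ratio of 42.2. It reached 7871 CPM in the 113 nuclei in sn9, 1139 CPM in the 33 elsewhere, 3447 CPM in the 270 other sn9 nuclei and 1150 CPM in sn14. A UMI of it was found in 82.3%, 21.2% and 75.2% of the first 3 sets. By nucleus, the 113 had a median of 1858 CPM, with quartiles of 493 and 4863 CPM, while the median of the 33 was 0. One sn9 nucleus of 26962 UMIs alone gave 1575 of the 4440 UMIs (35.5%), and the ratio of means over nuclei, which weights each nucleus equally, was 17.8.

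Glyma.05G002200 behaved much like it, at 3175 (3061 to 3292) CPM in the selected nuclei and 84.6 (81.7 to 87.5) CPM in the others, with the same nucleus giving 34.7% of its UMIs and a ratio of means of 15.6. Of the 113 nuclei in sn9, 77 held both of these RNAs, 16 only Glyma.19G002300, 8 only Glyma.05G002200 and 12 neither. Elsewhere, 7 of 33 held both and 23 neither. Glyma.09G282700 was more even, at 994 (931 to 1061) CPM against 32.1 (30.4 to 34.0) CPM. It was present in 89.4% of the 113 and 60.6% of the 33, with medians by nucleus of 1306 and 169 CPM.

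The 25 genes with the highest ratios after the markers had levels 18.7 to 42.2 times those of the other nuclei, and none was annotated in these tables. Genes had to be detected in at least 25% of all selected nuclei to be ranked. Those outside sn9 were too few to reach this alone, so the choice favored genes detected in sn9. All 25 were detected in a larger share of the nuclei in sn9 (33.6 to 89.4%) than of those elsewhere (9.09 to 63.6%). Their shares were 8.52 to 75.2% in the other sn9 nuclei, where all 25 were at least 10.2 times the level of nuclei not selected, and 0 to 5.21% in the embryo cluster sn2, whose median depth of 2576 UMIs was lower than that of the selected nuclei. After each nucleus was thinned to 1000 UMIs, which left out 389 shallower nuclei, the shares were 7.53 to 58.2% in the selected nuclei and 0.531 to 5.96% in the others. None of the 25 was higher in sn14 than in the selected nuclei. Glyma.08G186100 was at 464 CPM in the 113 and 385 CPM in the 33, but the 2 selected nuclei in sn17 gave 87 and 30 of its UMIs, and its medians by nucleus were 266 and 90.0 CPM. It was at 422 CPM in the other sn9 nuclei, 8.04 CPM in sn14 and 11.7 CPM in all nuclei not selected. Glyma.15G065600, by contrast, was at 327 CPM in the 113 and 33.7 CPM in the 33.

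Several abundant RNAs were shared with sn14. Glyma.15G088600 was at 1403 CPM in the selected nuclei, against 1540 CPM in sn14 and 136 CPM in all others, and Glyma.17G230700 was at 1302, 1301 and 145 CPM in the same sets. Glyma.17G098300 was at 972 CPM in the selected nuclei and higher, at 3668 CPM, in sn14. Glyma.13G223300 and Glyma.17G059900 were at 958 and 887 CPM in the selected nuclei and at 909 and 762 CPM in sn14.

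**Figure D2:**
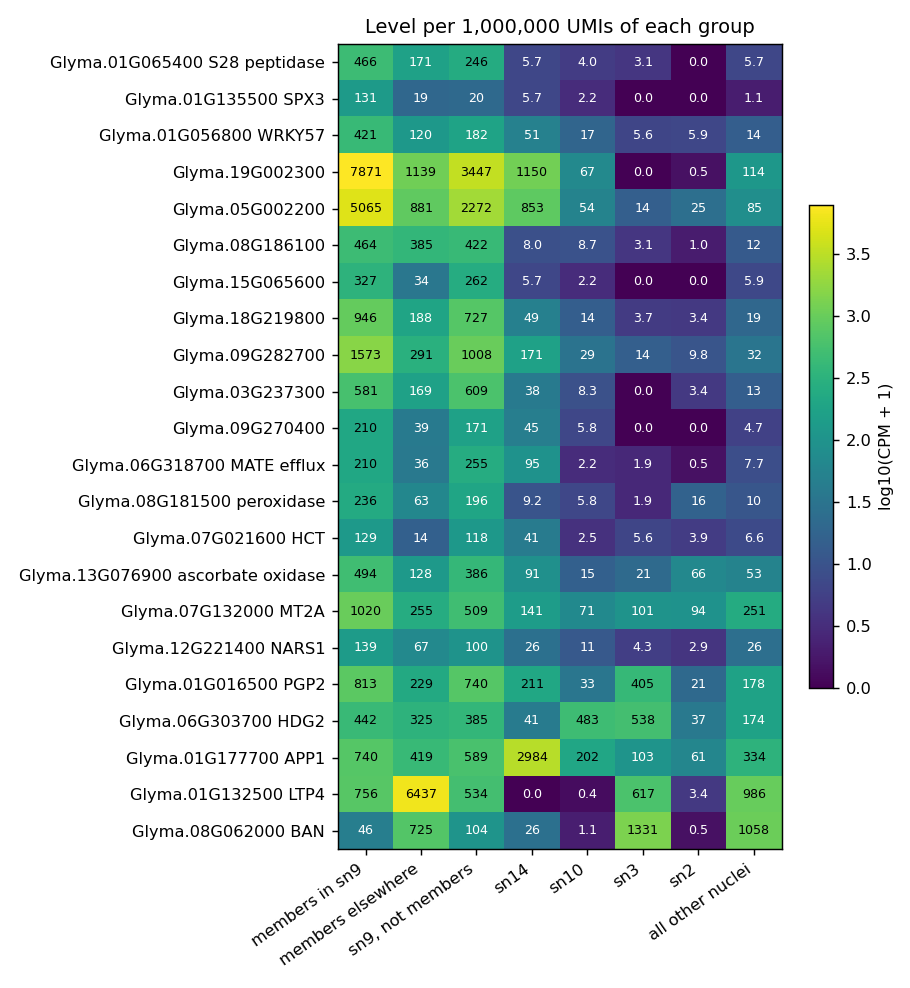
Pooled level of 22 genes (rows, the 3 marker genes first) in CPM, as printed in each cell and colored by log10(CPM + 1), in the selected nuclei (members) in sn9 and elsewhere, the other sn9 nuclei, clusters sn14, sn10, sn3 and sn2 without selected nuclei, and all nuclei not selected. Glyma.19G002300 runs from 7871 CPM at the left to 114 CPM at the right, and LTP4 stands out in the selected nuclei elsewhere, at 6437 CPM.

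Of the 312 genes, 29 were annotated in the tables used here, the 3 markers among them. Glyma.06G318700, a MATE efflux transporter, was 17.1 times higher in the selected nuclei (13.7 to 21.2), at 132 against 7.70 CPM. The peroxidase gene Glyma.08G181500 was 15.4 times higher, and Glyma.07G021600, most like HCT of the phenylpropanoid pathway, 11.8 times. The ascorbate oxidase gene Glyma.13G076900, whose product acts on apoplastic ascorbate, was at 328 against 53.5 CPM, 6.14 times higher. Glyma.12G221400, most like NARS1, an Arabidopsis NAC factor of integument development, was 4.11 times higher. The iron superoxide dismutase gene FSD2 (Glyma.10G193500) was 3.14 times higher, the copper chaperone CCH (Glyma.02G160500) 2.82 times and 2 genes like ARR9, a response regulator of cytokinin signaling, 2.80 and 2.22 times (Glyma.04G247800 and Glyma.06G114900). These were not highest in the selected nuclei throughout: in the embryo cluster sn2, FSD2 was at 400.3 CPM, against 273 CPM in the selected nuclei, and CCH at 564 CPM, against 395 CPM, while Glyma.06G114900 was at 315 CPM in sn14, against 216 CPM. Of the 29, only LTP4 (Glyma.01G132500), a lipid transfer protein gene, and CAD9 (Glyma.08G145900), a cinnamyl alcohol dehydrogenase gene, were at a lower level in the 113 nuclei than in the 33. The detection limit favored genes of the 113 here too. The MATE gene was at 210 CPM in the 113 nuclei and 36.1 CPM in the 33.

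Transcription factors were ranked only among the 353 genes labeled as such in the study's tables. The genes with the highest ratios after the markers had no annotation here, and whether any encodes a transcription factor was not tested. Of 71 genes in the study's transcription factor table, which does not hold the NARS1-like gene, with at least 20 UMIs in the selected nuclei, the largest ratio beside WRKY57 was 3.43 (2.96 to 3.96), for the bHLH gene Glyma.02G137400, at 220 CPM in the selected nuclei and 64.1 CPM in the others. The G2-like gene Glyma.07G178500 was at 115 against 37.5 CPM, and at 318 CPM in sn14. Glyma.06G303700, most like HDG2, a homeodomain factor of epidermal cells in Arabidopsis, was at 389 against 174 CPM, and it was higher in the endosperm cluster sn10, at 483 CPM, and in the seed coat epidermis cluster sn3, at 538 CPM. A second gene like HDG2, Glyma.12G100100, was at 296 against 158 CPM. Glyma.05G148800, most like the MADS-box gene SEP3, was at 608 against 335 CPM. HDG5 (Glyma.01G014600) and NF-YA3 (Glyma.07G036200) had ratios near 2, but their UMIs lay more in the selected nuclei outside sn9, where HDG5 was detected in 39.4% of 33, against 12.4% of the 113. DAG1 (Glyma.16G022900), BLH3 (Glyma.06G029100) and NF-YA9 (Glyma.14G010000) had ratios of 2.00, 1.84 and 1.53.

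Gene lists were compared by their summed level and by the number of members at least 2 times higher or at no more than 0.5 times the level of other nuclei. Only genes expected from the whole library to have at least 10 UMIs in the selected nuclei were counted. Over the 20447 such genes, 3.3% were at least 2 times higher and 13.5% at no more than 0.5 times, with a median log2 ratio of -0.08. The list for the endothelium at the globular and heart stages was not the study's full set of genes specific to that layer. It held 6 genes that the study labels so, of which 5 were counted. Of these, 3 were at least 2 times higher and 1 was at no more than 0.5 times, with a median log2 ratio of 1.42. They were a leucine-rich repeat kinase (Glyma.06G141100, 4.52 times), a tetratricopeptide repeat protein (Glyma.07G028800, 3.04 times) and MT2A, a metallothionein (Glyma.07G132000, 2.69 times, with 35.6% of its UMIs in 1 nucleus of sn9), while Glyma.17G251800, of unknown function, was at 0.162 times. The summed level was 993 CPM (930 to 1060) in the selected nuclei, against 416 CPM in the others, 1486 CPM in the 113 and 395 CPM in the 33. The list was at 3.57 times the level of nuclei not selected in the 113 and at 0.949 times in the 33. This is a weak check of the endothelium label, since MT2A alone gave 620 of the list's 913 UMIs and the list was also at 471 CPM in the embryo cluster sn2, where the tetratricopeptide repeat gene was at 343 CPM. The kinase gene Glyma.06G141100 was at 103 CPM in the 113, 19.3 CPM in the 33 and 2.44 CPM in sn2.

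The genes of chromosome 1 that the study's averages place highest in sn9 were at 709 CPM, against 233 CPM, with 3 of 4 counted members at least 2 times higher, among them PGP2, an ABC transporter (Glyma.01G016500, 549 against 178 CPM), and FAD8, a plastid fatty acid desaturase (Glyma.01G120400, 64.2 against 18 CPM). Those highest in sn14 were at 321 against 150 CPM, led by PFK3, a phosphofructokinase (Glyma.01G005400, 4.97 times), with 2 of 3 counted members at least 2 times higher. Both lists were taken from these same libraries and are no independent evidence. The list for the cotyledon-stage inner integument was at 1403 CPM in the selected nuclei, 1082 CPM in the others and 5868 CPM in sn14, with 1 of 5 members at least 2 times higher. Its most abundant member, the aminopeptidase gene APP1 (Glyma.01G177700), was at 595 CPM in the selected nuclei and 2984 CPM in sn14.

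RNAs of flavonoid and proanthocyanidin synthesis were low against the pooled other nuclei. Of 23 listed genes, 20 were counted and 19 of these were at no more than 0.5 times the level of other nuclei, against the 13.5% of all genes. The summed level was 2593 CPM (2490 to 2699) in the selected nuclei, 8158 CPM in the others and 17257 CPM in the seed coat epidermis cluster sn3. The chalcone synthase gene Glyma.01G228700, for the first committed step, was at 74.0 against 560 CPM. BAN (Glyma.08G062000), an anthocyanidin reductase, was at 352 against 1058 CPM, and the regulator TT8 (Glyma.02G147800) at 141 against 400 CPM. Only the dihydroflavonol reductase gene Glyma.02G158700 was above 0.5, at 0.590 times. Even these low levels rested on few nuclei: the 2 selected nuclei in sn17, of 40672 and 30736 UMIs, gave 90.7% of the BAN UMIs and 68.5% of those of the flavanone hydroxylase gene F3H (Glyma.02G048400). In the 113 nuclei in sn9 the list was at 1077 CPM and BAN at 45.6 CPM. The list was not lowest there: it was at 1682 CPM in the other sn9 nuclei, 812 CPM in sn14, 524 CPM in sn10 and 425 CPM in sn2.

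The same 2 nuclei in sn17 decided the pooled ratio of the list for cuticle and wax. The list's sum was 4513 CPM in the selected nuclei, 2.40 times the 1883 CPM of the others. However, 3 of 9 counted members were at least 2 times higher and 2 at no more than 0.5 times. LTP4 (Glyma.01G132500) made up 3055 of the 4149 UMIs, and the sn17 nuclei gave 87.4% of these. In the 113 nuclei in sn9 the sum was 1734 CPM, 0.921 times that of the nuclei not selected. LTP4 was at 756 CPM in the 113, against 986 CPM in the nuclei not selected. By cluster the list varied widely, at 1526 CPM in the other sn9 nuclei, 3141 CPM in sn3, 1223 CPM in sn10, 192 CPM in sn14 and 189 CPM in sn2. Glyma.16G107500, a pectin acetylesterase gene at 851 against 26.1 CPM, was found in only 2 selected nuclei, both in sn17.

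**Figure D3:**
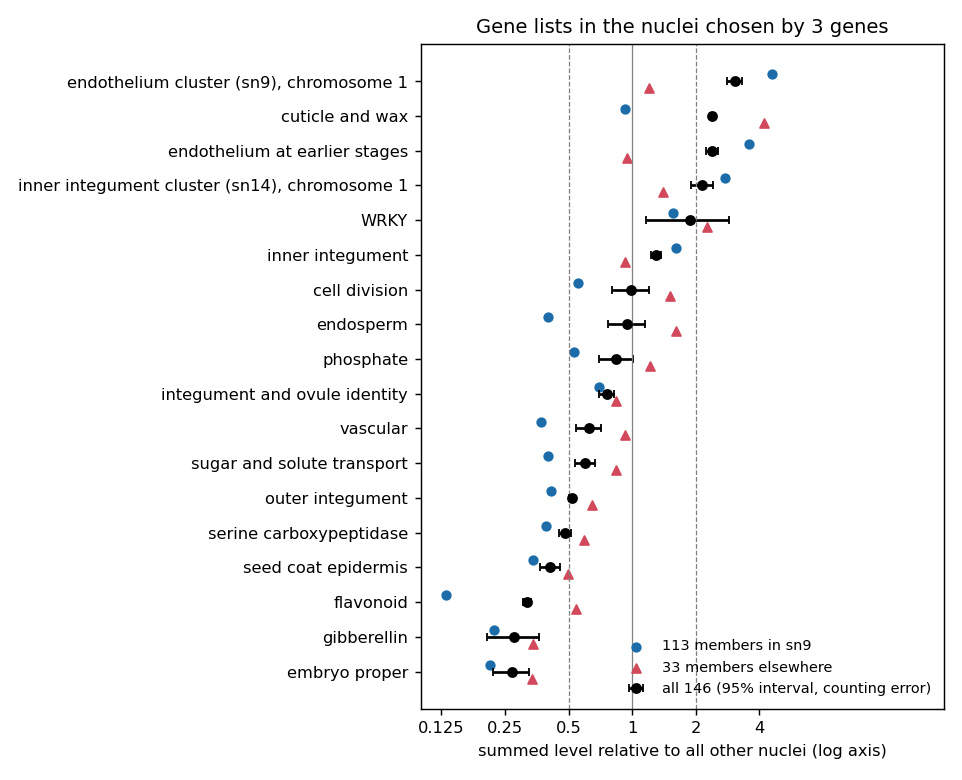
Summed level of each of 18 gene lists in the selected nuclei divided by that in all nuclei not selected (log x axis), as black points with 95% counting intervals for all 146, circles for the 113 in sn9 and triangles for the 33 elsewhere; dashed lines mark 0.5 and 2. The list of earlier endothelium genes is at 3.57 for the 113 and 0.949 for the 33, whereas cuticle and wax is at 0.921 and 4.19.

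All 8 embryo proper genes were at no more than 0.5 times, with a sum of 117 CPM in the selected nuclei, 437 CPM in the others and 2936 CPM in sn2. Of the seed coat epidermis genes, 10 of 15 were at no more than 0.5 times, with a sum of 404 against 987 CPM (333 CPM in the 113 and 489 CPM in the 33). Of the outer integument genes, 9 of 16 were, with 4915 against 9485 CPM (3903 CPM in the 113 and 6143 CPM in the 33). No marker of these 3 lists was at least 2 times higher. Endosperm genes summed to 108 CPM in the selected nuclei and 114 CPM in the others, but to 45.6 CPM in the 113 nuclei in sn9 and 183 CPM in the 33 elsewhere, with 312 CPM in sn10. The vascular list was at 240 against 386 CPM, with 143 CPM in the 113 and 359 CPM in the 33. Cell division genes were at 110 against 111 CPM over all 146, but at 61.5 CPM in the 113 and 169 CPM in the 33. No gene of the embryo proper, epidermis, outer integument, endosperm or vascular lists was without a UMI over all 146 nuclei. The part of these RNAs in the other results was not tested.

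In lists related to the 3 marker genes, no other counted gene was at least 2 times higher. Of 16 other serine carboxypeptidase genes, 11 were counted, none was at least 2 times higher and 7 were at no more than 0.5 times, with 939 against 1951 CPM. Among 17 genes of phosphate supply and signaling, none of 6 counted was at least 2 times higher and the sum was 135 against 160 CPM, with 85.3 CPM in the 113 and 195 CPM in the 33. The 2 genes like PHR1, the factor that SPX proteins restrain, had ratios of 1.40 (0.881 to 2.11) and 0.933 (0.507 to 1.58). Of 19 listed WRKY genes other than Glyma.01G056800, none was abundant enough to be counted. Together they had 22 UMIs in the selected nuclei, 23.9 (15.0 to 36.2) against 12.7 CPM, but this ratio of 1.88 was 0.700 in the 100 nuclei with the highest marker level. A pair of WRKY genes like TTG2, an Arabidopsis regulator of the seed coat, stood in the flavonoid list and was lower, with Glyma.19G177400 at 182 against 472 CPM and Glyma.03G176600 at 117 against 358 CPM. In the gibberellin list, KAO1, a cytochrome P450 of gibberellin synthesis (Glyma.09G029400), was at 42.4 against 190 CPM, the only one of 8 counted. Sugar and solute transport genes were at 343 against 572 CPM, with 2 of 8 at no more than 0.5 times. The list of integument and ovule identity was at 633 against 834 CPM, with none of 7 counted genes at least 2 times higher and 2 at no more than 0.5 times, both like ANT, an AP2 factor of ovule growth (Glyma.05G108600, 0.244 times, and Glyma.06G049200, 0.299 times). Its most abundant members, SHP1 (Glyma.18G105800) and SHP2 (Glyma.14G019400), MADS-box genes of the ovule and fruit, had ratios of 0.935 and 0.865.

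Among RNAs found in at least 50% of the other nuclei, the lowest ratios were 0.335 for HIR1 (Glyma.02G021500), a membrane protein, 0.371 for Glyma.01G006200, 0.419 for APT5 (Glyma.04G065800), 0.450 for LHCB2.1 (Glyma.14G008000), a chlorophyll-binding protein, and 0.466 for RD22 (Glyma.07G176700), a BURP domain protein. RD22 was still at 1032 CPM in the selected nuclei, against 2214 CPM in the others.

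The ATAC library was not used to select the nuclei and gives a separate readout of the same barcodes. Nuclei were placed by their accessible peaks, and the 20 nearest neighbors of each were taken. Of the neighbors of selected nuclei, 21.6% were themselves selected, against 1.10% of the neighbors of nuclei not selected and 1.69% of all nuclei. For the 270 sn9 nuclei not selected this share was nearly the same, at 20.0%, so it was not particular to the selected nuclei. In all, 64.9% of the neighbors of selected nuclei were in sn9, against 3.52% for nuclei not selected. The 113 nuclei in sn9 and the 33 elsewhere separated in this readout too. Neighbors in sn9 made up 76.6% for the 113 and 25% for the 33, beside 73.6% for the 270 other sn9 nuclei and 4.0% for sn14. At least 10 of 20 neighbors were in sn9 for 93 of the 113 nuclei and 9 of the 33.

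**Figure D4:**
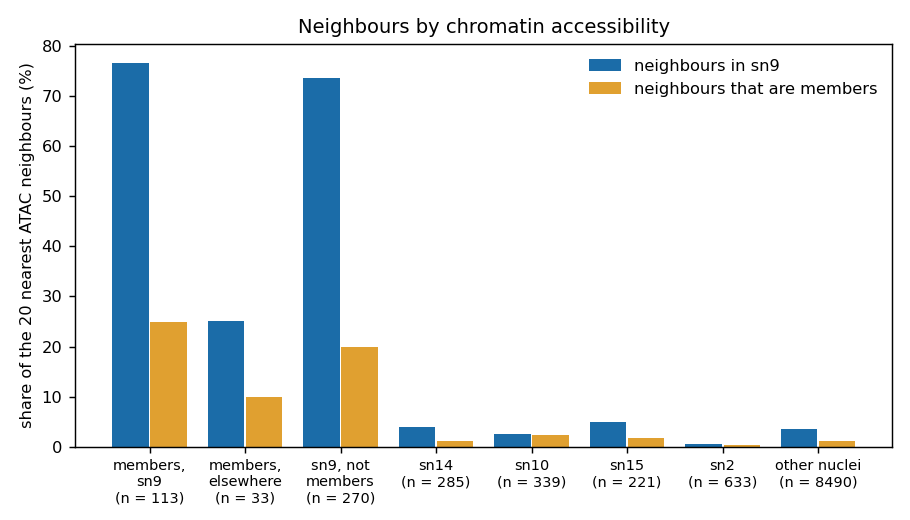
Share of the 20 nearest neighbors by ATAC (y axis, %) that are in sn9 (left bar) or selected (right bar), for the selected nuclei in sn9 and elsewhere, the other sn9 nuclei, the nuclei of sn14, sn10, sn15 and sn2 not selected, and all nuclei not selected. Neighbors in sn9 make up 76.6% and 25% in the selected sets, 73.6% in the other sn9 nuclei and 4.89% or less in the remaining groups.

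The 33 nuclei varied in their neighbors. Of the 7 in the embryo cluster sn15, 5 had 12 to 14 neighbors in sn9 and the remaining 2 had 2 and 0, whereas sn15 nuclei not selected had 4.89% of their neighbors in sn9. Of the 9 in sn10, 2 had 13 and 12 neighbors in sn9 and the rest 5 or fewer. The single nucleus in sn4 had 20, and 1 of the 2 in sn14 had 17. For 23 of the 33, at most 5 neighbors were in sn9, and these had a median of 9618 UMIs, against 3476 UMIs for the 9 with at least 10.

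Accessible peaks were compared by fragments per 1000000 fragments in peaks (FPM). Of 29179 peaks with at least 20 fragments over the selected nuclei, 1232 (4.22%) were at least 2 times more open in them than in the other nuclei. To read peaks in nuclei that did not choose them, peaks were chosen on every other selected nucleus by rank and measured on the rest. The 651 peaks chosen on 73 nuclei were 2.02 times as open in the other 73 as in nuclei not selected, and 323 of them (49.6%) again reached 2 times, against 3.56% of all 13038 peaks with 20 fragments in the choosing set. The reverse choice gave 588 peaks at 2.01 times, with 48.6% at 2 times or more. These same peaks were 2.82 and 2.71 times as open in the other sn9 nuclei, 1.82 and 1.70 times in sn14, 0.895 and 0.916 times in sn10 and 0.758 and 0.766 times in sn2. Held-out nuclei in sn9 reached 2.52 and 2.25 times, and those elsewhere 1.49 and 1.33 times. Both sets of 73 came from the same library, passed the same selection and were read against the same other nuclei. They are not replicates, and the recurrence describes nuclei chosen alike. The share of fragments in peaks was lower in the selected nuclei (73.2%) than in the others (79.2%), and its part in these values was not tested.

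**Figure D5:**
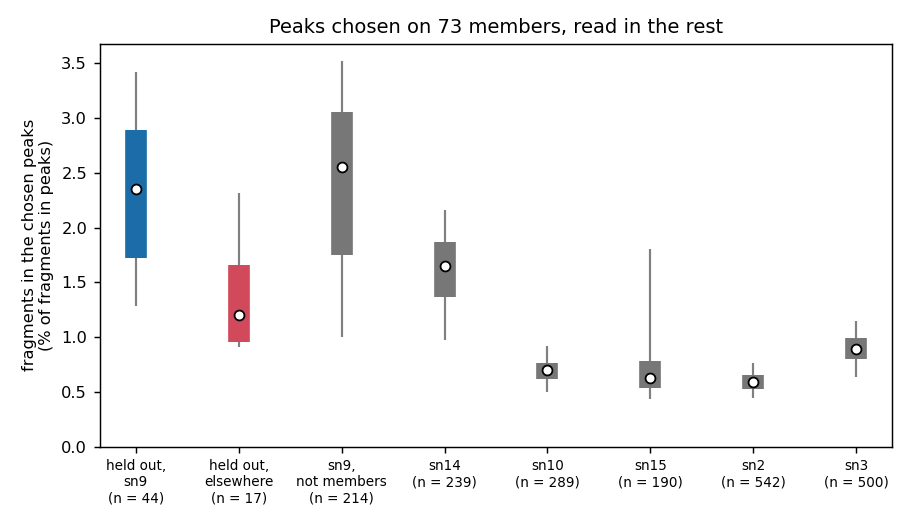
Fragments in the 651 peaks chosen on 73 of the selected nuclei, as a percentage of each nucleus's fragments in peaks (y axis), for nuclei with at least 3000 fragments: points are medians, thick bars quartiles and thin lines the 5th to 95th percentiles over nuclei. Held-out selected nuclei have medians of 2.35% in sn9 and 1.2% elsewhere, other sn9 nuclei 2.56%, sn14 1.65% and sn2 0.588%.

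The 10 peaks with the highest ratios among those with at least 50 fragments were 4.09 to 6.15 times more open in the selected nuclei. Their positions are those of the deposited peak list on the Wm82.a2.v1 assembly, whose gene positions were not used here. The highest was at Chr18:47952912-47954415, with 59 fragments in the selected nuclei and 30.0 FPM, against 4.88 FPM in the others. It was at 41.5 FPM in the other sn9 nuclei and 16.7 in sn14. The next, at Chr11:5523319-5525008, had 34.6 against 5.74 FPM and was at 54.2 FPM in the other sn9 nuclei. On chromosome 5, the peaks Chr05:39393864-39395574 and Chr05:39434673-39436276 lay 39098 bases apart and were 5.55 and 5.45 times more open in the selected nuclei. The remaining 6 were Chr02:2668369-2670918, Chr18:50268990-50270885, Chr09:39057769-39059549, Chr18:50665937-50668172, Chr11:31495428-31500734 and Chr10:1062972-1067751. All 10 had a higher ratio in the 113 nuclei in sn9 (4.80 to 8.08) than in the 33 elsewhere (1.61 to 3.85). The peaks were chosen by their pooled ratio, and the 113 gave most fragments of each, so this contrast partly follows from the choice. All 10 were at least 4.85 times more open in the other sn9 nuclei than in all nuclei not selected. In sn14 the 10 peaks were 2.27 to 4.37 times more open than in nuclei not selected, and at Chr09:39057769-39059549 and Chr10:1062972-1067751 the ratio in sn14 (4.37 and 4.19) was slightly above that in the selected nuclei (4.30 and 4.09).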

How the data were processed

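Nuclei of 1 seed pool were profiled in 1 RNA library (39881831 UMIs over 8636 nuclei, median 2945.5 UMIs) and 1 ATAC library. The latter holds 125691389 fragments over all barcodes, including those outside the 8636 nuclei. The deposited RNA matrix holds UMI counts per gene and nucleus, made by the authors with bcl2fastq 2.20.0.422 and Cell Ranger ARC 1.0 on Wm82.a2.v1 gene models and corrected for free RNA with SoupX; Seurat 4.1.1 is also in the submitters' processing notes. In it 18.2% of stored entries equal 0, taken here as set by that correction, which lowers faint signals. The deposited ATAC files hold fragments with their read counts and a peak list of 119743 regions; each fragment was counted once.

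Clusters were rebuilt with Seurat 5.3.0 and sctransform 0.4.2 (R 4.3.3; 30 components, resolution 1, 21 clusters) and matched to the study's cluster averages; differences from the study may come from rebuilt names. Sums and ratios were computed with scipy 1.17.1, numpy 2.4.6 and pandas 2.3.3 in Python 3.11.15, and plots with matplotlib 3.10.9. Levels are summed UMIs per 1000000 of a group, with exact Poisson intervals (95%). No doublets were removed. ATAC neighbors used components 2 to 30 of latent semantic indexing. Gene names came from the study's tables (4674 genes annotated).

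The nuclei and gene lists were chosen with earlier results of these data known. Named genes were the markers, the 25 highest ratios (at least 50 UMIs, detected in 25% of the selected nuclei), the 10 highest levels with a ratio of at least 2, up to 10 transcription factors (at least 20 UMIs), the 5 lowest ratios (detected in 50% of other nuclei), list members, and the 10 highest peaks; other annotated genes were named after their values were seen. On simulated data, the gene calls found all 67 genes set 3 times higher, none of 67 set 1.5 times higher and none of 55844 left alone. All 200 peaks set 3 times higher were called, as were 23 of 28855 left alone. The counts were drawn from 1 shared profile, without cell types or single nuclei of very high counts. They give no error rate for the real data, and a limit of 2 times leaves out 1.5 times by construction. Alternatives changed the selection, thresholds, comparison nuclei, depth and neighbor settings. Sequences were not used here.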

Additional observations from a re-analysis of the deposited data

How the results depend on the processing

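No paired analysis was possible because there is 1 library of each kind and no replicate. The share of selected nuclei in sn9 (77.4%) was 94.0% for the 100 highest, 88.9% without Glyma.01G065400 in the rule (36 nuclei) and 91.2% without Glyma.01G056800 (34 nuclei). The 312 higher genes numbered 123 at 4 times, 812 at 10% detection, 625 without Glyma.01G065400, 643 without Glyma.01G056800 and 52 after thinning to 1000 UMIs. The 99 lower genes numbered 11 at 4 times, 885 at 10% detection, 188 for the 100 highest, 157 without Glyma.01G056800, 19 after thinning and 153 for nuclei in sn9 only. Of the 18 lists, 9 had a summed level at least 2 times or at most 0.5 times that of other nuclei, against 5 for nuclei outside sn9 only. The 1232 peaks numbered 80 at 4 times, 279 at 50 fragments, 267 without Glyma.01G065400, 226 without Glyma.01G056800 and 84 for nuclei outside sn9 only. The share of ATAC neighbors that were selected (21.6%) was 24.1% with 10 neighbors, 19.9% with 50, 20.0% with components 2 to 15, 17.8% with 2 to 50 and 23.9% for nuclei in sn9 only. The cuticle and wax ratio turned to 0.81 for the 100 highest, 0.921 in sn9 only and 0.778 without nuclei over 20000 UMIs, and the earlier endothelium ratio to 0.949 outside sn9. The WRKY list's ratio of 1.88 was 0.700 for the 100 highest. Alternatives by sn9, by stored entries and without nuclei over 20000 UMIs were chosen after seeing the data. Asking for 200 nuclei gave the same 146. The causes were not tested, beyond fewer nuclei or stricter limits by construction.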
